A study of Thermothelomyces thermophilus with 4 samples.

Results

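In the heat-loving mould Myceliophthora thermophila, also named Thermothelomyces thermophilus, 81 of the 9110 gene models were both abundant and steady on 4 crop straws. A model was taken as steady when its lowest library had at least 300 FPKM and its highest library was at most 1.5 times the lowest. FPKM is the read count of a gene per kilobase of its length and per 1000000 assigned reads. The 81 genes were therefore chosen on the same values that are described here, so their levels and ratios are a description and were not tested. The fungus breaks down plant cell walls, and the study asked how its transcripts respond to different biomass. Mycelium came from shaken cultures in Trametes Defined Medium at 45 °C, started from spores, with oat, triticale, canola or flax straw as the carbon source. Per the labels the canola culture grew for 30 h and each of the others for 24 h, so that for canola an effect of straw and one of time cannot be told apart. Each straw had 1 library of poly(A) RNA and no replicate culture, and the strain is not given in the sources used here.

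Transcripts that stay level while the carbon source differs are of use as reference genes, since other transcripts can be measured against them. In filamentous fungi the abundant part of the transcriptome usually holds genes for protein synthesis, energy metabolism, the cytoskeleton and protein folding, beside secreted enzymes on plant biomass. Genes of wall-degrading enzymes are known to depend on the carbon source through dedicated transcription factors. No product descriptions were at hand for the models, none of the 81 was among the 6 models with a gene symbol, and none is given a role here. The 81 genes are named by the RefSeq locus tag (assembly ASM22609v1) that carries the number of the model. All 81 matched a tag, and the deposited lengths equalled the spans of the RefSeq genes. Sequences are not shown, because no sequence of this organism was used here.

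Between 6495371 (triticale) and 7977329 (canola) reads per library were assigned to genes. Every steady gene had at least 490 reads in every library, and the most deeply read value rested on 28084 reads. From these reads 95% counting intervals were taken, exact Poisson ones for a value and exact Clopper-Pearson ones for a ratio. They cover counting error only and leave out the spread between cultures, which cannot be measured with 1 library per straw. Of the 9110 models 237 had at least 300 FPKM on every straw, and 81 of these 237 (34.2%) stayed within the ratio of 1.5. They made up 0.889% of all models. The other 156 abundant models, which passed the floor and not the ratio, are used below for comparison.

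The steady genes spanned mean levels from the 12th to the 313th rank of the table, and their median mean level was 521 FPKM. At or above 1000 FPKM on average there were 12, between 500 and 1000 FPKM 31, and below 500 FPKM 38. Together they took 8.21% of the oat reads, 9.61% of the triticale reads, 8.45% of the canola reads and 8.85% of the flax reads. The other 156 abundant models took 25.6%, 29.0%, 22.9% and 24.7% in the same order. All 11 models ranked above the most abundant steady gene passed the floor of 300 FPKM, so each of them was left out for its ratio.

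**Figure D1:**
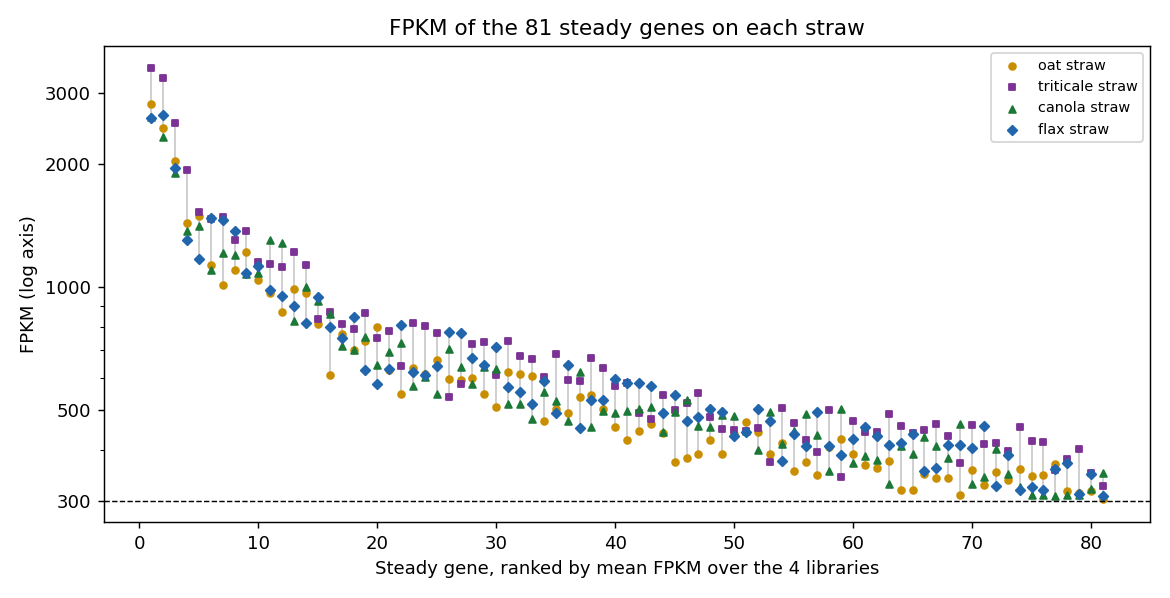
FPKM (log axis) of the 81 steady genes, ranked by mean level, with 1 point per straw and a grey line from the lowest to the highest library of each gene. The dashed line is the floor of 300 FPKM; the 3 genes at the left are above the rest on every straw, and most triticale points (squares) lie near the upper end of their line.

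The most abundant steady gene was MYCTH_57779, a model of 615 bases. It had 2809 FPKM on oat straw, 3453 on triticale straw, 2617 on canola straw and 2599 on flax straw. Triticale stood above the other straws, and the highest value was 1.33 times the lowest (95% counting interval 1.30 to 1.36). The 3 genes next in level repeated this with triticale highest. MYCTH_112137 had 2450.1, 3263, 2338 and 2647 FPKM on oat, triticale, canola and flax straw, a ratio of 1.40. Its neighbour in RefSeq gene order, MYCTH_112136, had 2044, 2525, 1905 and 1965 FPKM on oat, triticale, canola and flax straw, a ratio of 1.33. MYCTH_2071169, the second shortest of the 81 at 351 bases, had 1439, 1938, 1370.0 and 1303 FPKM on oat, triticale, canola and flax straw. With a ratio of 1.49 it lay close to the limit, and its triticale value was 1.35 times the next straw, the widest triticale lead among the steady genes.

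The 8 genes next in level averaged between 1057 and 1404 FPKM, and they did not share 1 order of straws. MYCTH_2315557 (2488 bases) had 1498 FPKM on oat straw, 1530.5 on triticale straw, 1415 on canola straw and 1173 on flax straw, so that flax stood apart at the low end and the other straws lay close together. MYCTH_111405 had 1131 FPKM on oat straw, 1469 on triticale straw, 1105 on canola straw and 1481 on flax straw, with flax and triticale high and oat and canola low. In MYCTH_86146 oat was the low library, at 1011, 1489, 1214 and 1459 FPKM on oat, triticale, canola and flax straw. MYCTH_2316642 had a similar shape in a narrower range, with 1099, 1306, 1202 and 1371 FPKM on oat, triticale, canola and flax straw and a ratio of 1.248. For MYCTH_2301567 both cereal straws lay above both dicot straws, at 1219 FPKM on oat straw, 1376 on triticale straw, 1076 on canola straw and 1084 on flax straw. Canola, the culture of 30 h, was the high library of MYCTH_2313370, with 965, 1143, 1305 and 983 FPKM on oat, triticale, canola and flax straw, and of MYCTH_2314483, with 871, 1122, 1281 and 954 FPKM on oat, triticale, canola and flax straw. The remaining gene of this range, MYCTH_2316753, was among the steadiest and is described with those.

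The 81 ratios of highest to lowest library ran from 1.06 to 1.49, with a median of 1.34 and quartiles of 1.26 and 1.41. At most 1.1 was reached by 1 gene, at most 1.2 by 10, at most 1.3 by 29 and at most 1.4 by 58. The steadiest gene was MYCTH_2299445, a model of 1032 bases. It had 466 FPKM on oat straw, 445 on triticale straw, 445 on canola straw and 441 on flax straw, and its ratio of 1.06 had a counting interval of 1.01 to 1.11. This was the single gene of the 81 whose 4 counting intervals shared a common value. For the other 80 at least 1 pair of libraries had counting intervals that did not overlap, and over the 81 genes this held for 394 of the 486 pairs of libraries. Whether these differences exceed the spread between cultures was not tested. Counting intervals narrow as reads rise, so the counts of intervals that do not overlap depend on read depth. The same counts over other models are not given here, so they are no trait of the steady genes.

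MYCTH_71748 followed, with 317 FPKM on oat straw, 349.7 on triticale straw, 319.6 on canola straw and 348 on flax straw and a ratio of 1.10. Oat and canola were alike here, and so were triticale and flax. The steadiest gene above 1000 FPKM was MYCTH_2316753, with 1041, 1154, 1085 and 1128 FPKM on oat, triticale, canola and flax straw and a ratio of 1.11 (counting interval 1.09 to 1.13). MYCTH_2295989 had 436, 447, 483 and 431 FPKM on oat, triticale, canola and flax straw, with canola a little above the other straws. MYCTH_2308157 stayed within 1.13-fold at a mean of 763 FPKM, with 766 FPKM on oat straw, 815 on triticale straw, 719 on canola straw and 752 on flax straw. MYCTH_2312570, the lowest of the 81 by mean level, had 303, 326, 351 and 307 FPKM on oat, triticale, canola and flax straw. The dicot straws were the higher ones for MYCTH_2300252, at 812 FPKM on oat straw, 837 on triticale straw, 926 on canola straw and 949 on flax straw, a ratio of 1.17. The 3 others among the 10 steadiest were MYCTH_2310521, with a ratio of 1.18, MYCTH_2294734, with 1.19, and MYCTH_2299383, with 1.20. The 10 steadiest genes thus lay between 322 and 1102 FPKM on average and did not include the 9 most abundant ones. Across the 81 genes, which are not independent replicates, Spearman's rho between mean level and ratio was 0.17 and Pearson's r was 0.12.

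As deposited, the order of straws among the steady genes leaned to triticale at the top and oat at the bottom. The highest library was triticale for 49 of the 81, flax for 19, canola for 10 and oat for 3. Over the 8230 models with a mean of at least 1 FPKM the corresponding shares were 24.5%, 30.0%, 29.3% and 16.1%. Among the other abundant models they were 65.4%, 19.2%, 10.3% and 5.13%, against 60.5%, 23.5%, 12.3% and 3.70% of the steady genes. The lean to triticale at the top was thus not particular to the steady genes. The lowest library was oat for 37 steady genes, canola for 27, flax for 13 and triticale for 4, against 10.0%, 24.5%, 20.8% and 44.7% of the 8230 models. Among the other abundant models the lowest library was oat for 10.9%, canola for 12.2%, flax for 67.3% and triticale for 9.62%. The rule does not set which straw is highest, but it limits the distance between them, so these counts describe the chosen genes. Under the other scalings of whole libraries triticale stayed the most common highest library of the 81, from 36 genes (same FPKM sum) to 77 (median centring). After correction of each library for its trend with expression level, the same 81 genes were highest on triticale in 12 cases and on flax in 44. The lean to triticale thus depends on how the libraries are scaled or corrected. The oat side does too. After upper-quartile scaling the lowest library of the 81 genes was canola in 40 and oat in 27, after median centring over models with a mean of at least 10 FPKM it was canola in 37 and oat in 32, and after correction for both level and gene length it was triticale in 36 and oat in 27. Oat stayed the most common lowest library with median centring (37, canola 31), the median of ratios (38, canola 23) and the same FPKM sum (32, canola 22). It was also so after correction for gene length (39, canola 22) or level (36, triticale 24) alone.

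Pairs of straws gave the same picture for triticale. Triticale was above oat in 74 of the 81 genes, with a median ratio of 1.21, while this held for 39.1% of the 8230 models. It was above canola in 62 genes (median ratio 1.14, background 41.3%) and above flax in 58 (median ratio 1.09, background 40.1%). Among the other abundant models triticale was likewise above oat in 82.7%, above canola in 78.2% and above flax in 75.6%. Flax was above oat in 52 genes (background 53.5%) and above canola in 55 (background 51.8%), with median ratios of 1.10 and 1.06. Canola was above oat in 47 genes, against 49.7% of the 8230 models, with a median ratio of 1.04. Triticale against oat gave the most one-sided of these counts. It ran from 69 to 81 of the 81 genes under the other scalings of whole libraries, while it was 48 after correction for the trend with level and 39 after correction for gene length too.

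**Figure D2:**
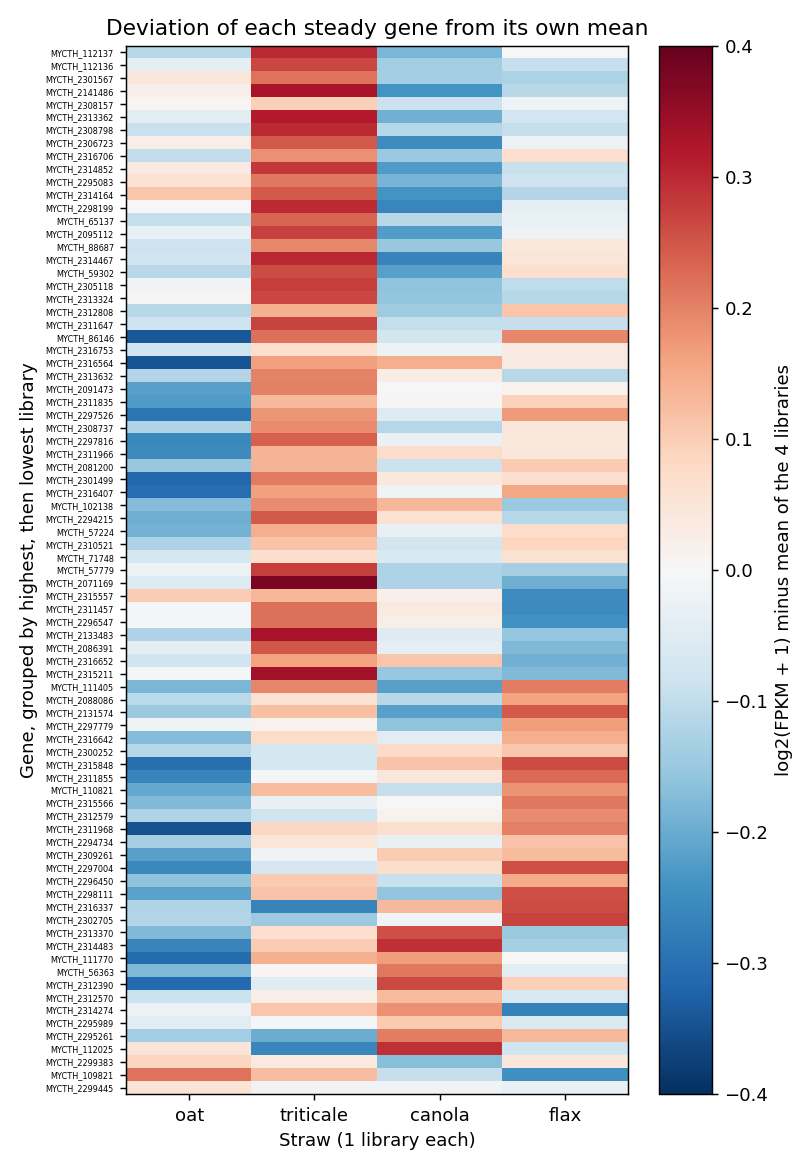
Deviation of each of the 81 steady genes (rows) from its own mean over the 4 libraries (columns), in log2(FPKM + 1), grouped by highest and then by lowest library. The triticale column is above the mean in the upper block of 49 genes and oat is the lowest library of 37 genes; after correction for the trend with level, 12 of the 81 genes were highest on triticale, and after upper-quartile scaling canola was lowest in 40 and oat in 27. With the median of ratios oat was lowest in 38 and canola in 23.

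The largest block, 22 genes, was highest on triticale and lowest on canola. Besides MYCTH_112137, MYCTH_112136, MYCTH_2301567 and MYCTH_2308157 it held MYCTH_2141486, at 988 FPKM on oat straw, 1222 on triticale straw, 825 on canola straw and 901 on flax straw, with a ratio of 1.48. MYCTH_2308798 had 611, 801, 601 and 609 FPKM on oat, triticale, canola and flax straw, so that triticale stood apart and the counting intervals of the other straws overlapped. MYCTH_2311647 showed the same shape near the floor, with 313, 401, 310.3 and 311 FPKM on oat, triticale, canola and flax straw. MYCTH_2306723 had 663 FPKM on oat straw, 772 on triticale straw, 547 on canola straw and 641 on flax straw. There canola was 1.17-fold under the next straw and triticale 1.16 times the next. MYCTH_2298199 had 544, 669, 453 and 529 FPKM on oat, triticale, canola and flax straw, with canola low and triticale high. The 22 ratios ran from 1.13 to 1.49.

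A second block of 18 genes was highest on triticale and lowest on oat. It held the widest oat deficits of genes led by triticale. MYCTH_2316564 had 611 FPKM on oat straw, 871 on triticale straw, 858 on canola straw and 797 on flax straw, with oat 1.31-fold under the next straw. MYCTH_2301499 had 318, 458, 408 and 414 FPKM on oat, triticale, canola and flax straw, where oat was 1.28-fold under the next. For MYCTH_2297526 triticale and flax were alike at the high side, with canola between and oat lowest, at 421, 583, 498 and 582 FPKM on oat, triticale, canola and flax straw. MYCTH_71748 and MYCTH_2316753, among the steadiest, also belonged here. Another block of 9 genes was highest on triticale and lowest on flax. MYCTH_2133483 had 502 FPKM on oat straw, 688 on triticale straw, 527 on canola straw and 491 on flax straw, with triticale 1.30 times the next straw. In MYCTH_2311457 and MYCTH_2296547 flax was low, with 817 and 627 FPKM, and triticale high, with 1134 and 865 FPKM. Oat and canola lay between, at 969.8 and 1002 FPKM for MYCTH_2311457 and 739 and 754 FPKM for MYCTH_2296547.

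Flax was highest for 19 genes, and oat was the lowest library in 13 of them. MYCTH_2315848 had 547 FPKM on oat straw, 643 on triticale straw, 729.7 on canola straw and 808 on flax straw, a stepwise order with a ratio of 1.48. MYCTH_2311855 had 508, 608, 629 and 715 FPKM on oat, triticale, canola and flax straw. In MYCTH_2311968 oat was 1.33-fold under the next straw, the widest oat deficit of the 81, at 372 FPKM on oat straw, 501 on triticale straw, 496 on canola straw and 545 on flax straw. The widest flax lead was that of MYCTH_2302705, with 591, 579.8, 636 and 773 FPKM on oat, triticale, canola and flax straw, where flax was 1.22 times the next straw. MYCTH_2315566 and MYCTH_2297004 followed with flax leads of 1.16 and 1.14. MYCTH_2316337 was lowest on triticale, against the common order, with 595 FPKM on oat straw, 538 on triticale straw, 708 on canola straw and 775 on flax straw.

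Canola was highest for 10 genes and oat for 3. MYCTH_112025 had 425 FPKM on oat straw, 342 on triticale straw, 502 on canola straw and 388 on flax straw, with canola 1.18 times the next straw and triticale the lowest. MYCTH_2295261 was the other gene of this kind, with 391, 374, 494 and 469 FPKM on oat, triticale, canola and flax straw. MYCTH_56363, the shortest of the 81 at 180 bases, had 372 FPKM on oat straw, 423 on triticale straw, 488 on canola straw and 409 on flax straw, on 490 to 701 reads per library. Its ratio of 1.31 had the widest interval of the genes named here, 1.17 to 1.47. The 3 genes led by oat were MYCTH_2299445, MYCTH_2299383 and MYCTH_109821. MYCTH_109821 had 799.5 FPKM on oat straw, 749 on triticale straw, 645 on canola straw and 580.1 on flax straw, so that both cereal straws were above both dicot straws and oat was above triticale.

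For 21 of the 81 genes both cereal straws (oat and triticale) were above both dicot straws (canola and flax), against 19.1% of all 9110 models, and for 11 both dicot straws were above both cereal straws, against 26.5%. The labels do not make this grouping, which rests on the kind of plant. The median ratio of the cereal to the dicot level, each taken as a geometric mean, was 0.999, and it was above 1 for 40 genes. The widest cereal side was that of MYCTH_2314164, one of the 3 longest of the 81, with 607 FPKM on oat straw, 666 on triticale straw, 475 on canola straw and 518 on flax straw, a ratio of 1.28 between the class levels. MYCTH_2141486 and MYCTH_109821, described above, followed with 1.27 and 1.26. On the dicot side MYCTH_2316337 had the widest gap, with a cereal level of 0.764 times the dicot level, then MYCTH_2315848 with 0.772. MYCTH_2312390 came next with 0.778, at 309.6, 372, 462 and 411 FPKM on oat, triticale, canola and flax straw. The other 156 abundant models had both cereal straws above both dicot straws in 67.3% and the opposite in 14.1%.

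Among the abundant models outside the ratio, 1 order of straws prevailed. Of the 156, 92 (59.0%) had triticale highest, then oat, then canola and flax lowest, while 5 of the 81 steady genes (6.17%) had that order. Under the other scalings of whole libraries the counts were 88 to 94 of the 156 and 5 to 9 of the 81, and after correction for the trend with level they were 74 and 1, and after correction for gene length too 53 and 1. The steady genes were spread over 17 of the 24 possible orders and the 156 others over 20, and the most common order of the steady genes held 14 of them. Their median log2 deviations from the mean of the 4 libraries were -0.11, 0.15, -0.05 and 0.03 on oat, triticale, canola and flax. In the 156 others the corresponding medians were 0.15, 0.50, -0.19 and -0.49. Over the 8230 models they were 0.05, -0.14, 0.05 and 0.08, so the median triticale deviation was above the mean among abundant models, steady or not, and below it over all. Since the limit on the ratio removes genes that are far apart, the smaller size of the deviations among the 81 follows from the rule. The same limit parts the 81 from the 156, so it also bears on which orders of straws each holds. In the 156 the median ratio of triticale to flax was 1.97, past the limit of 1.5. The share of the prevailing order over all models is not given here.

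**Figure D3:**
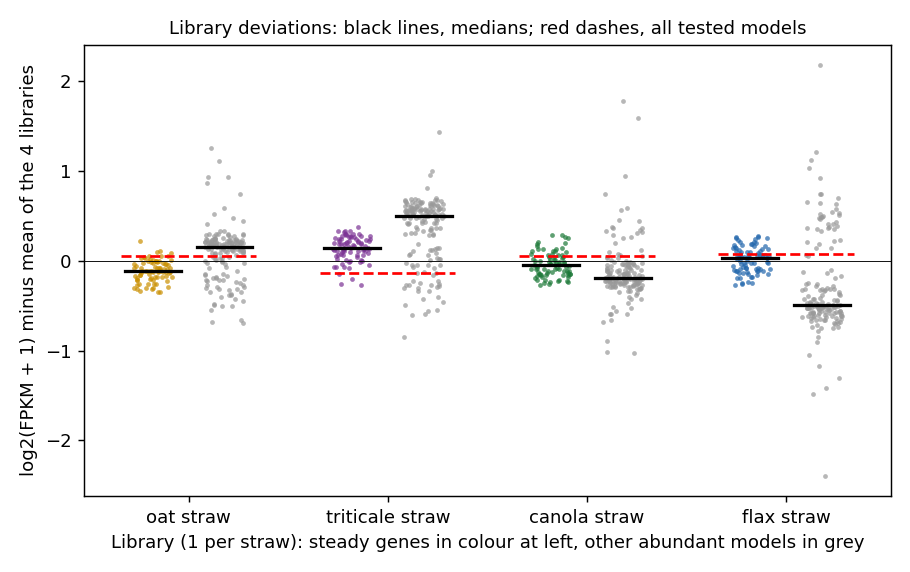
Deviation of each library from the mean of the 4 libraries, in log2(FPKM + 1), for the 81 steady genes (coloured points, left) and the other 156 abundant models (grey points, right), with medians as black lines and the median of the 8230 models as red dashes. The medians of the grey points are 0.50 on triticale and -0.49 on flax, and those of the coloured points are 0.15 and 0.03. These positions depend on the scaling, and after correction for the trend with level 12 of the 81 genes were highest on triticale.

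Leaving out flax brought 41 of the 156 other abundant models within 1.5-fold on the other 3 straws, leaving out triticale 27, canola 15 and oat 11, and 23 of the 156 counted under more than 1 of these. For 85 of the 156 no single library was enough. Closest outside the ratio were MYCTH_2297802, at 1239.8, 1126, 1050.2 and 1576 FPKM on oat, triticale, canola and flax straw and a ratio of 1.501, MYCTH_2134935, at 592, 529, 652 and 435 FPKM on oat, triticale, canola and flax straw with 1.501, and MYCTH_77342, with 1.516. Closest inside were MYCTH_2312390 with a ratio of 1.493, MYCTH_2071169 with 1.487 and MYCTH_2314467 with 1.485. At the floor, the lowest library was 303 FPKM for MYCTH_2312570, 308 for MYCTH_2299383 and 309.6 for MYCTH_2312390. Just below it were MYCTH_2304704 with 299 FPKM, MYCTH_2142488 with 295 and MYCTH_2295174 with 295, which were all within 1.5-fold. The counting interval of the ratio reached past 1.5 for 12 of the 81 steady genes and below 1.5 for 8 of the 156 others, so 20 models near the ratio limit could fall on either side by counting error. Counting error bears on the floor too. The interval was 294 to 312 FPKM for MYCTH_2312570 on oat straw and 291 to 307 FPKM for MYCTH_2304704 on canola straw. The number of models whose interval crosses the floor is not given here.

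The share of models within 1.5-fold was not highest among the most abundant ones. Among models whose lowest library was at 1 to 3 FPKM, 5.39% stayed within 1.5-fold, and the share was 10.7% at 3 to 10 FPKM and 30.4% at 10 to 30 FPKM. It was 43.7% at 30 to 100 FPKM and highest, 47.5% of 509 models, at 100 to 300 FPKM. At 300 to 1000 FPKM 34.6% of 205 models and at 1000 FPKM and over 31.3% of 32 models were within the limit, and these are the 81 steady genes. The median model had 20 reads in its lowest library in the first of these classes and 1801 at 100 to 300 FPKM, so counting error adds more to the ratios of the low classes. At 300 to 1000 FPKM the median was 5570 reads.

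**Figure D4:**
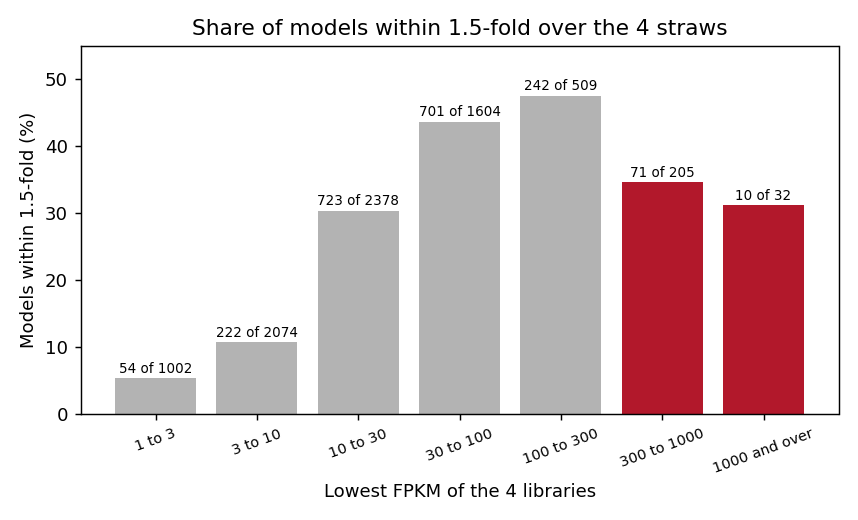
Share of models whose highest library was at most 1.5 times the lowest, by the lowest FPKM of the 4 libraries, with the counts above each bar and the classes that hold the 81 steady genes in red. The share is highest at 100 to 300 FPKM (47.5%) and lower, 34.6% and 31.3%, in the red classes.

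The libraries differed in how their values were spread over levels, and the steady genes lie at the upper end of that pattern. For this the 8230 models were put in classes by the geometric mean of FPKM + 1 over the 4 libraries. This differs from the mean FPKM used above, and the classes are named on that scale. In the class of 1 to 3 the median triticale deviation was -0.22 on the log2 scale, at 3 to 10 it was -0.42 and at 10 to 30 -0.29. It was 0.02 at 30 to 100, 0.17 at 100 to 300, 0.25 at 300 to 1000 and 0.29 at 1000 and over. From the class of 3 to 10 upwards triticale thus rose with level, and the lowest class did not follow that order. Flax was at 0.09 at 1 to 3 and went from 0.20 at 3 to 10 to -0.13 at 300 to 1000 and -0.32 at 1000 and over. The share of models with triticale above oat was 30.7% at 1 to 3, 24.0% at 3 to 10 and 81.05% at 300 to 1000. The median triticale deviation of the 81 genes, 0.15, was below the values of the 2 highest classes, which include the 81. The limit on the ratio restricts the deviations of the 81, so this follows from the rule and is no result about them. The part of this trend in the order of straws among the steady genes was not tested beyond the counts given with it removed.

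**Figure D5:**
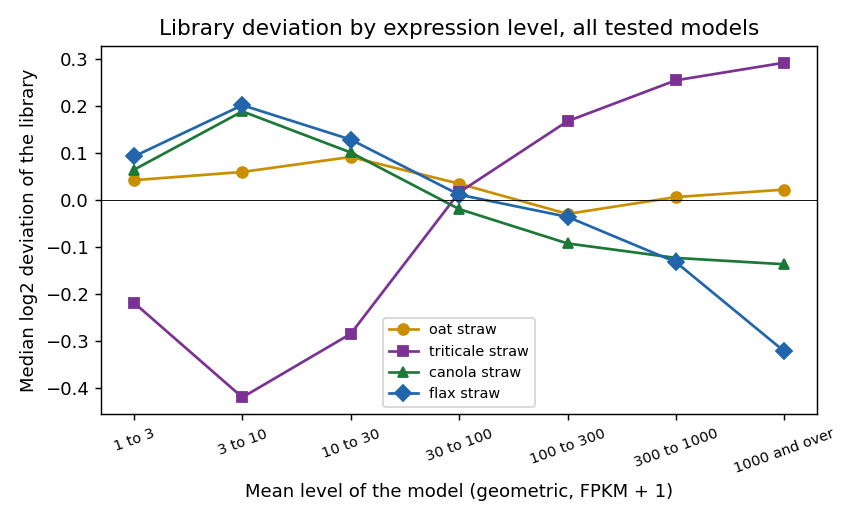
Median deviation of each library from the mean of the 4 libraries, in log2(FPKM + 1), for all models with a mean of at least 1 FPKM. The 7 classes are of the geometric mean of FPKM + 1. Triticale runs from -0.42 in the class of 3 to 10 to 0.29 in that of 1000 and over, and flax from 0.20 to -0.32. The lowest class, 1 to 3, is nearer to 0 than the next, at -0.22 for triticale and 0.09 for flax.

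With the median deviation of the steady genes taken off each library, the median ratio of highest to lowest was 1.24 instead of 1.34. Then in 44 of the 81 the highest library was at most 25% above the lowest, against 18 before, and 4 passed 1.5-fold. This correction is made from the steady genes themselves and describes them. Canola, the culture of 30 h, was the highest or the lowest library in 37 of the 81 genes (45.7%), against 53.7% of the 8230 models. Against the other abundant models the direction was the reverse. Canola was highest in 10.3% and lowest in 12.2% of those, and in 12.3% and 33.3% of the steady genes.

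The median length of the steady genes lay between that of the other abundant models and that of all tested models. It was 1513 bases, with a range of 180 to 3656 bases, against 1354 bases for the other 156 abundant models and 1797 bases for the 8230 models. The longest were MYCTH_2312579 with 3656 bases, MYCTH_110821 with 3632 and MYCTH_2314164 with 3458. Of the 27 shortest genes, up to 1134 bases, 18 were highest on triticale and 3 on flax. Among the 27 longest, from 2024 bases, 12 were highest on triticale and 10 on flax. The median ratio of triticale to oat was 1.29 in the short, 1.22 in the middle and 1.11 in the long group of 27. The median mean level also differed, at 449, 480 and 591 FPKM in the same order. Counts by length over other models are not given here. Spearman's rho between length and the triticale deviation was -0.25 over the 81 genes, and between length and the oat deviation it was 0.25. These points share the 4 libraries, and length enters every FPKM value. The 2 longest genes were both highest on flax, with 462, 476, 507 and 573 FPKM on oat, triticale, canola and flax straw for MYCTH_2312579 and 456, 572, 491 and 595 FPKM on oat, triticale, canola and flax straw for MYCTH_110821.

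In RefSeq gene order 8 of the 81 genes lay directly next to another steady gene (9.88%), while 1.86% of the 8210 tested models with a matched tag lay next to one. Of the 154 other abundant models with a matched tag, 4 (2.60%) lay next to a steady gene. Being next to an abundant model was not particular to the steady genes. Next to a model with at least 300 FPKM on every straw lay 12 of the 81 (14.8%) and 5.18% of the 8210. For the other abundant models with a matched tag it was 33 of 154 (21.4%). The 8 steady genes formed 4 pairs, and none of the 4 pairs had overlapping spans. MYCTH_112137 and MYCTH_112136 were one pair, both above 1900 FPKM on every straw and highest on triticale and lowest on canola. MYCTH_57779 and MYCTH_2071169 were another, both with triticale highest, then oat, canola and flax. The pair of MYCTH_2311966, at 354, 464, 445 and 436 FPKM on oat, triticale, canola and flax straw, and MYCTH_2311968, described above, shared oat as the low library, with oat 1.23-fold and 1.33-fold under the next straw. In the pair of MYCTH_56363 and MYCTH_2316706 the orders differed, since MYCTH_2316706 was highest on triticale, with 598, 728, 578 and 669 FPKM on oat, triticale, canola and flax straw.

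The 149 models next to a steady gene and not steady themselves had a median mean level of 29.5 FPKM, and 28.2% of them were within 1.5-fold, a share near the 24.6% of the 8230 models. The spans of 4 steady genes (4.94%) overlapped a neighbour, a share near the 5.19% of the other abundant and the 5.49% of all tested models with a matched tag. These were MYCTH_111405, MYCTH_112137, MYCTH_2311966 and MYCTH_2316564. Each was between 14.2 and 63.0 times as high as its partner by mean FPKM. Nothing in the labels says that strand was kept, so reads from the overlapping stretches may be shared.

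Which genes met the rule depended on the scaling of the libraries and on which libraries were used. Without the flax library 127 genes met it on the other 3 straws, the 81 included by construction. With each library set to the same sum of FPKM, 80 of the 81 genes were kept and 6 others were added. Upper-quartile scaling kept 63, the median of ratios 37 and median centring 17. The rule was met under all 4 of these scalings by 16 genes, and 6 of the 10 steadiest were among them, namely MYCTH_2299445, MYCTH_2316753, MYCTH_2295989, MYCTH_2308157, MYCTH_2300252 and MYCTH_2294734. MYCTH_2088086 was another of the 16, with 703, 789.9, 702 and 848 FPKM on oat, triticale, canola and flax straw, and flax and triticale were its higher straws.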

How the data were processed

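The authors deposited 1 table of FPKM values for 9110 numbered gene models, with the length of each in bases per the file headers. The sources used here give no aligner, counter, build or annotation. FPKM times length, divided by 1000, summed to 1000000 in each library, and 100% of these products were whole multiples of the smallest one (within 0.001 of a read), so reads were recovered from them (7308467 on oat, 6495371 on triticale, 7977329 on canola, 7955444 on flax straw). Trizol was used for the RNA and an Illumina mRNA-Seq kit for the libraries, per the labels' protocols. Of the models, 9087 matched a RefSeq locus tag (assembly ASM22609v1), which was used for names, lengths and gene order, and no coordinates are given. Since the spans include introns, genes with long introns are understated.

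The steady genes were found on the FPKM as deposited. Deviations used log2(FPKM + 1), on which differences of low genes come out too small. Medians over all models used the 8230 with a mean of at least 1 FPKM. With 1 library per straw no test was made and no p-value is given. The members and the lists were chosen with earlier results of these data known. Named genes were the 20 most abundant, the 10 steadiest, the 3 nearest each threshold on either side, pairs next to each other, the 3 widest leads and deficits of each straw, and the 3 shortest and longest. Others were added after their values were seen: MYCTH_2297526, MYCTH_2311647, MYCTH_2311855 and MYCTH_2315848. The lists of pathways planned from product text could not be evaluated. The rule was checked on simulated data. Alternatives were other limits and floors, 4 scalings, a pseudocount of 10, removal of trends and leaving out each library. Python 3.11.15, pandas 2.3.3, numpy 2.4.6, scipy 1.17.1 and matplotlib 3.10.9 were used.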

Additional observations from a re-analysis of the deposited data

How the results depend on the processing

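The number of steady genes, 81, was 18 with a ratio limit of 25% above the lowest library and 140 with a limit of 2, and 323 with a floor of 100 FPKM and 10 with a floor of 1000 FPKM. It was 23 after median centring, 46 after median centring over models with a mean of at least 10 FPKM, and 44 with the median of ratios. It stayed within 1.5 times of 81 with upper-quartile scaling (72), the same FPKM sum (86), a ratio of FPKM + 10 (83), the trend with gene length removed (58), the trend with level removed (90) and both removed (89). With 1 library left out it ran from 98 to 127, the highest value being that without flax, and it could only keep or add genes. Median centring moved triticale by 0.28 on the log2 scale against the mean of the library medians (its median was at -0.28) and the other libraries by 0.07 to 0.12, and the median of ratios moved triticale by 0.15 (at -0.15).

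The share of steady genes highest on triticale, 60.5%, was 44.4% with a limit of 25%, 80.0% with a floor of 1000 FPKM, 44.2% with the same FPKM sum, 28.9% after removal of the trend with level and 27.0% after removal of both trends. The share lowest on oat, 45.7%, was 66.7% with a limit of 25%, 34.3% with a limit of 2, 32.2% with a floor of 100 FPKM and 30.0% with a floor of 1000 FPKM. It was 65.2% after median centring, 68.2% with the median of ratios, 60.3% with the trend with gene length removed and 27.0% with both trends removed. The causes were not tested, and the 2 settings with the trend with expression level were chosen after seeing the data. As shares of summed FPKM in place of reads, the 81 genes took 8.06%, 9.18%, 8.40% and 8.40% on oat, triticale, canola and flax straw. No other gene length was at hand to recompute the levels. No paired analysis was possible because each straw had 1 library. Counting error leaves 20 models near the ratio limit that could fall on either side, without those near the floor of 300 FPKM, which were not counted. The lack of replicate cultures limits every value.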
